A study of Rattus norvegicus with 9 samples.

Results

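The genes described here make the peptides, and the machinery to show them, that T cells read on the surface of other cells. They were measured in rat bladder and comprise the immunoproteasome subunits Psmb8, Psmb9 and Psmb10, the proteasome activator subunits Psme1 and Psme2, the peptide transporter chains Tap1 and Tap2, the class I light chain B2m, the class II invariant chain Cd74 and the class II transactivator Ciita. Every probe whose accession maps to 1 of these symbols in RefSeq was taken, which gave 10 genes of 15168 with a probe named in this way, with 1 probe for each gene.

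Gene expression was measured on 9 single-colour arrays of bladder RNA from female rats at 3 weeks, in 3 groups of 3 arrays. The first group had partial bladder outlet obstruction (pBOO), in which the proximal urethra is tied around a catheter, and was treated with tolterodine, a muscarinic receptor antagonist. The second group had pBOO alone, and the third had a sham operation in which the urethra was not tied. Strain, age and tolterodine dose are not given in the labels, and the comparisons read here concern obstruction and its treatment, while the series title concerns matrix made by human bladder muscle cells. The labels speak of 5 specimens per group and do not say whether an array carries 1 animal or a pool, so p-values measure only the spread between these arrays. The treatment protocol calls obstruction S and sham C, whereas the arrays coded C are titled pBOO and those coded S are titled sham. The titles were followed. Exchanging the 2 names would turn the sign of every difference between pBOO and sham. The comparisons of pBOO + tolterodine against pBOO and against sham would then trade places.

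Proteasomes cut cytosolic proteins into peptides, and interferon gamma makes cells replace the constitutive catalytic subunits by Psmb8, Psmb9 and Psmb10. The Tap transporter carries peptides into the endoplasmic reticulum, where they are loaded on class I molecules paired with B2m. Class II molecules are made mainly by macrophages, dendritic cells and B cells, with Ciita as the master switch of their transcription. Cd74 is the chaperone that blocks their groove until the endosome.

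All levels below are log2 values in which 0 is the 75th percentile of the array, and every change is a log2 fold change with the standard error (SE) of a limma fit over all genes. Across arrays, 72.1% to 80.1% of spots were well above background, 4.66% to 6.31% carried a quality flag and 0 were saturated. Bladder identity markers (Actg2 and Des of smooth muscle, Upk2 and Upk3a of urothelium), read with flagged spots kept, were high on all 9 arrays, with levels from 4.73 to 7.89. Array sham 1 stood apart from the other sham arrays. It correlated across genes at 0.966 and 0.976 with sham 2 and sham 3, which correlated at 0.994 with each other, and at 0.966 to 0.973 with the tolterodine arrays. Arrays pBOO 1, 2 and 3 and sham 1 shared a scan start, taken here as slide 2, tolterodine 1 and 2 and sham 2 and 3 shared slide 1, and tolterodine 3 was scanned alone as slide 3. The changes of the members and of the listed genes were therefore also computed without sham 1, and those of the members against sham also within slides. The pBOO + tolterodine and pBOO arrays share no slide, so there is no within-slide value for that comparison. In it, treatment and slide cannot be told apart directly. A fit with slide as a fixed block links these groups only through the sham arrays, with sham 1 alone on slide 2. With slide as a random block, the consensus correlation between arrays of a slide was 0.626.

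Promoters are shown here for letters that a family of interferon-regulated factors is known to bind, which 6 of the 9 available carry. Whether these letters bear on the members' changes was not tested. RefSeq promoters of the assembly GRCr8, of 250 bases before to 50 bases after the start, were available for 9 members. The core of the interferon-stimulated response element (ISRE), searched as TTTC, any 2 bases and TTTC on both strands, was found in 6 of the 9, in Psmb8, Psmb10, Psme2, Tap1, Tap2 and B2m. It is found in 3.92% of all 33469 rat promoters of the same length. Psmb9, Psme1 and Cd74 lacked it within these windows. An NF-kB motif, searched as GGG, any 2 bases and TTTCC, was found in 3 of the 9 (Tap1, B2m and Cd74) against 1.53% of all promoters. A Y box, ATTGG, was found in 4 of the 9 (Psmb8, Psmb9, B2m and Cd74) against 37.5%, and a gamma-activated site (TTC, any 3 bases and GAA) in 1 of the 9 (Psmb8) against 8.87%. No match overlapped another in the printed stretches, and a match describes letters and not binding. The 200 bases before the start are printed 5' to 3' on the gene's strand for 6 members, and capitals mark the ISRE core or the NF-kB motif on either strand. The stretches lie at chr19:50743293-50743492 on the minus strand for Psmb10, chr15:33052752-33052951 on the minus strand for Psme2 and chr20:4668544-4668743 on the minus strand for Tap1. They lie at chr20:4652297-4652496 on the minus strand for Tap2, chr3:129549130-129549329 on the plus strand for B2m and chr18:56527006-56527205 on the plus strand for Cd74.
Psmb10: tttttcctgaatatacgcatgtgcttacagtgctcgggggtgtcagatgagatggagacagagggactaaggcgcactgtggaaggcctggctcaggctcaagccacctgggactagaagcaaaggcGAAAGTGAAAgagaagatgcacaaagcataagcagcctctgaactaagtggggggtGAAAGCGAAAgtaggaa
Psme2: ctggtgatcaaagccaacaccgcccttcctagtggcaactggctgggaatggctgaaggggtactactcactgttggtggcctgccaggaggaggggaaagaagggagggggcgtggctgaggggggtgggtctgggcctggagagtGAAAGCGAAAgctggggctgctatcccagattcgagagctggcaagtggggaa
Tap1: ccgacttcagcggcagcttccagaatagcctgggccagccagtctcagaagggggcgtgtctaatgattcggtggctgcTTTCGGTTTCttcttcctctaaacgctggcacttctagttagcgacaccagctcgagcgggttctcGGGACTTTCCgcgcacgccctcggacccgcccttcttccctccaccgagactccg
Tap2: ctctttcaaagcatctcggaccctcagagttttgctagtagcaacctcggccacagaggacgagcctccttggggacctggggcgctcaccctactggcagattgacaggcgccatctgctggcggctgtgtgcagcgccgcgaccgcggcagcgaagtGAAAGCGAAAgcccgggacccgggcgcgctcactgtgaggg
B2m: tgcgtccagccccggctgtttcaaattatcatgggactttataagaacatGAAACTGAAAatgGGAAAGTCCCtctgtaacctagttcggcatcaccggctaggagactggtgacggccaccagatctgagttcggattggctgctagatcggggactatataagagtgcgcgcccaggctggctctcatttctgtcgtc
Cd74: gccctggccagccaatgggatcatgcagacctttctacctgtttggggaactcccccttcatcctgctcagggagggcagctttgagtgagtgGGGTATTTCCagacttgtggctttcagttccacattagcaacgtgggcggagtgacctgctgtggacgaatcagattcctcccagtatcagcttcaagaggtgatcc

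Psmb10 carried the ISRE core at 2 places, from -73 to -64 and from -17 to -8 relative to the start. Tap1 and B2m carried the ISRE core and the NF-kB motif in the same stretch. Tap1 and Psmb9 are transcribed away from each other and their promoter windows share 44 bases. The ISRE core of Tap1 lies between the starts of these genes, outside the window of Psmb9. On chromosome 20 the coding genes run RT1-DOb, Tap2, Psmb8, Tap1, Psmb9 and RT1-DMb, so that 4 members lie side by side among class II genes, and on chromosome 15 Psme1 and Psme2 are separated by Emc9 alone.

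With flagged spots removed, 8 members could be tested. The 4 tested subunits of the immunoproteasome and its activator (Psmb8, Psmb9, Psme1 and Psme2) were all lower in pBOO than in sham and all higher in pBOO + tolterodine than in pBOO. Of the transporter chains, Tap2 was lower in pBOO than in sham, and neither chain passed the test in pBOO + tolterodine against pBOO. The class II members Cd74 and Ciita were higher in pBOO + tolterodine than in both other groups. In pBOO against sham, 6 of the 8 were lower and 0 higher, beside 21.7% of all genes called lower, and the median change of the 8 was -0.97 against -0.04 over all 11049 genes. Of the same 8, 6 were higher and 0 lower in pBOO + tolterodine against pBOO, beside 26% of all genes called higher, with a median of 0.75 against 0.11. In pBOO + tolterodine against sham, 2 were higher (Cd74 and Ciita) and 3 lower (Psmb9, Psme2 and Tap2), beside 17.8% of all genes called higher and 6.59% called lower. The arrays of the groups did not overlap for 7 of the 8 in pBOO against sham, all lower in pBOO (29.8% of all genes), and for 6 in pBOO + tolterodine against pBOO, all higher (36.7%). Against sham, the pBOO + tolterodine arrays lay above for 2 (27.8%) and below for 3 (15.3%). Over all genes, 20.8% were called higher in pBOO than in sham and 15.3% lower in pBOO + tolterodine than in pBOO. The 3 comparisons share arrays, so the first and the second are not independent views of the pBOO arrays. These arrays hold whole bladder, in which fewer cells of a type and less RNA per cell cannot be told apart.

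Flags touched 4 members, in each case on the local background and never on the spot itself. B2m was flagged on all 9 arrays and Psmb10 on 5, so both were tested only with flagged spots kept. Psmb8 lost tolterodine 1 and sham 3, and Psme2 lost 24 of its 90 spot values. With flagged spots kept, 8 of the 10 members were lower in pBOO than in sham (22.9% of all genes), 8 were higher in pBOO + tolterodine than in pBOO (26.6%), and 2 were higher and 4 lower in pBOO + tolterodine than in sham (17.5% and 6.55%). Every member was well above background on every array.

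The calls against sham were repeated within slides. Within slide 2, which sets the 3 pBOO arrays against sham 1, 5 of the 8 members were lower and 0 higher, beside 12.8% of all genes called lower, with Psmb9 at -2.09, Psmb8 at -1.85, Psme2 at -1.38, Ciita at -1.09 and Psme1 at -0.94. Without sham 1, 6 were lower and 0 higher, beside 23.6% of all genes called lower, with Psmb9 at -1.61, Psmb8 at -1.11, Psme2 at -1.08, Psme1 at -0.94, Tap2 at -0.91 and Ciita at -0.88. Within slide 1, which sets tolterodine 1 and 2 against sham 2 and 3, 7 members were tested, of which 2 were higher (Cd74 and Ciita) and 4 lower (Psmb9, Tap2, Psme1 and Psme2), beside 32.3% of all genes called higher and 21.7% called lower. A single sham array was assumed to vary like the other arrays.

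**Figure D1:**
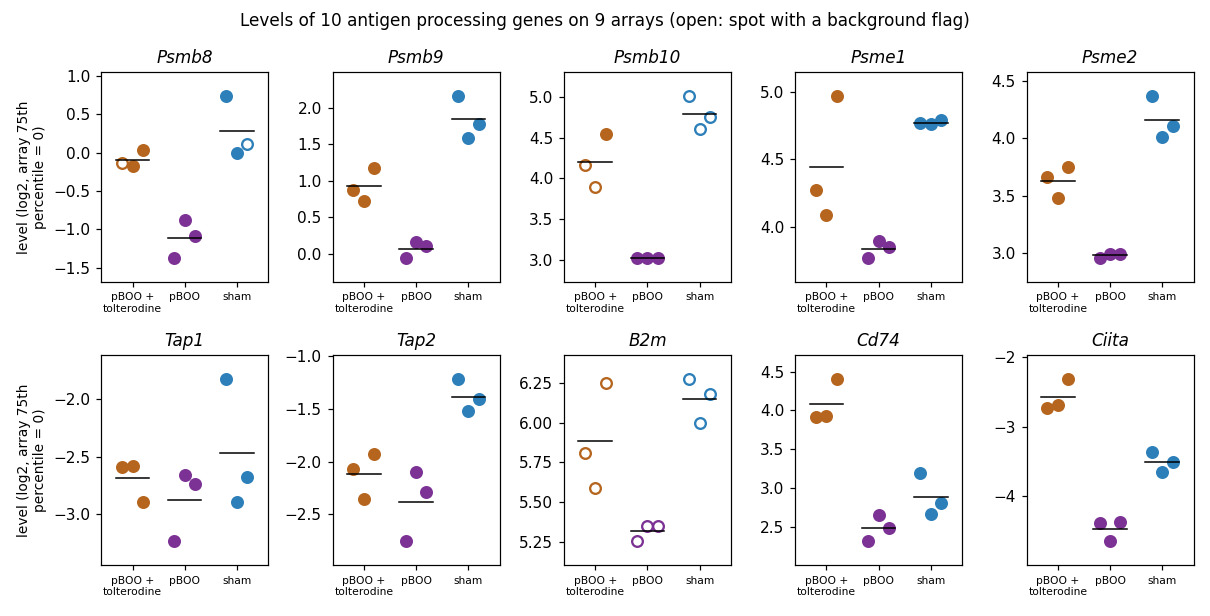
Level of each of the 10 genes on each array (log2, 75th percentile of the array set to 0), with pBOO + tolterodine, pBOO and sham side by side. Points are arrays in the order 1, 2, 3, bars are group means over the 3 arrays, and open points have a background flag on all spots of the gene. For every gene but Tap1 and Tap2, the pBOO points lie below all points of both other groups.

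Psmb9 replaces the constitutive subunit Psmb6. Its level was 0.88, 0.72 and 1.18 on the pBOO + tolterodine arrays, -0.05, 0.16 and 0.11 on the pBOO arrays, and 2.16, 1.59 and 1.78 on the sham arrays. The 3 groups did not overlap, with pBOO lowest and sham highest. Psmb9 fell by 1.77 in pBOO against sham (SE 0.18, adjusted p = 0.000133), so that sham was 3.41-fold above pBOO. It rose by 0.85 in pBOO + tolterodine against pBOO (SE 0.18, adjusted p = 0.00504) and fell by 0.92 in pBOO + tolterodine against sham (SE 0.18, adjusted p = 0.00722). All 3 calls held under every alternative that was run.

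Psmb8 replaces Psmb5. Its unflagged levels were -0.18 and 0.03 on tolterodine 2 and 3, -1.37, -0.88 and -1.09 on the pBOO arrays, and 0.74 and 0 on sham 1 and 2. The flagged spots of tolterodine 1 and sham 3 read -0.13 and 0.12. The pBOO arrays were below all the others, while pBOO + tolterodine lay close to sham 2. Psmb8 fell by 1.48 in pBOO against sham (SE 0.25, adjusted p = 0.00398) and rose by 1.03 in pBOO + tolterodine against pBOO (SE 0.25, adjusted p = 0.0169). The call against pBOO was lost without tolterodine 3 (0.93, adjusted p = 0.0866). The difference between pBOO + tolterodine and sham was -0.44 (SE 0.28, adjusted p = 0.287), and it was -0.07 without sham 1.

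Psmb10 replaces Psmb7. With flagged spots kept, its level was 4.17, 3.89 and 4.55 on the pBOO + tolterodine arrays, 3.03 on each of the pBOO arrays, and 5.01, 4.61 and 4.75 on the sham arrays. The pBOO levels were equal at 2 decimals although the signals behind them were 11800, 8448 and 7777 intensity units. The background flags of Psmb10 fell on tolterodine 1 and 2 and on all sham arrays, and on no pBOO array. Its changes between pBOO and the other groups thus set unflagged spots against mostly flagged ones. The groups did not overlap. Psmb10 fell by 1.76 in pBOO against sham (SE 0.18, adjusted p = 0.000134) and rose by 1.17 in pBOO + tolterodine against pBOO (SE 0.18, adjusted p = 0.00106). It fell by 0.59 in pBOO + tolterodine against sham (adjusted p = 0.0397), a call that was lost in 9 of 19 alternatives, among them the fit without sham 1 (-0.48).

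The activator subunits Psme1 and Psme2 form a ring that opens the proteasome's gate. Psme2 was printed at 10 spots per array, and the SD between these spots was 0.0196 to 0.0699 on a log2 scale. Its mean level was 3.66, 3.49 and 3.74 on the pBOO + tolterodine arrays, 2.96, 2.99 and 3 on the pBOO arrays, and 4.36, 4.01 and 4.11 on the sham arrays. The 3 groups did not overlap, and the gaps between them exceeded the spread between spots on an array. Psme2 fell by 1.18 in pBOO against sham (SE 0.12, adjusted p = 0.000173), rose by 0.65 in pBOO + tolterodine against pBOO (SE 0.12, adjusted p = 0.00361) and fell by 0.53 in pBOO + tolterodine against sham (SE 0.12, adjusted p = 0.0169). The last call was lost in 3 of 21 alternatives, each of which left out 1 array (tolterodine 1, tolterodine 2 or sham 3, with values of -0.55, -0.46 and -0.55).

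Psme1 was at 4.27, 4.09 and 4.97 on the pBOO + tolterodine arrays, 3.77, 3.89 and 3.85 on the pBOO arrays, and 4.77, 4.76 and 4.79 on the sham arrays. Tolterodine 3 was above every sham array, while tolterodine 1 and 2 lay between pBOO and sham. Psme1 fell by 0.94 in pBOO against sham (SE 0.2, adjusted p = 0.00613). It rose by 0.61 in pBOO + tolterodine against pBOO (SE 0.2, adjusted p = 0.0394), and this call was lost in 11 of 20 alternatives, over which the value ran from 0.27 to 0.79. Without tolterodine 3, the change against pBOO was 0.35. Its difference in pBOO + tolterodine against sham was -0.33 (adjusted p = 0.265), and -0.59 without tolterodine 3 (adjusted p = 0.00845).

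**Figure D2:**
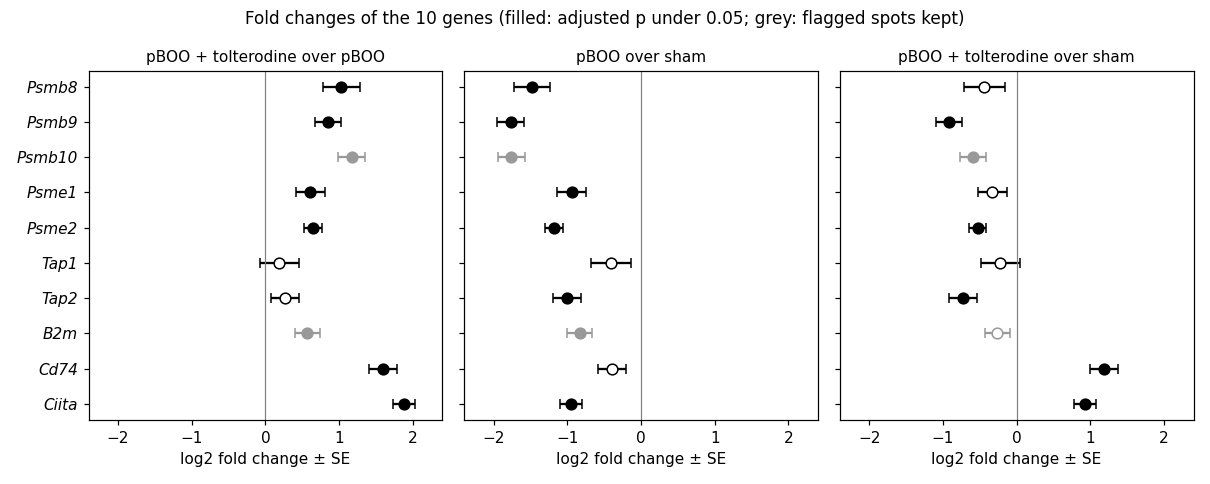
Log2 fold changes of the 10 genes with the SE of the fit, in 3 panels for pBOO + tolterodine over pBOO, pBOO over sham, and pBOO + tolterodine over sham. Filled points have an adjusted p under 0.05, and grey points (Psmb10 and B2m) come from the fit with flagged spots kept. All 10 points lie above 0 in the first panel and below 0 in the second, and in the third only Cd74 and Ciita lie above 0.

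Whether the immunoproteasome subunits moved apart from the constitutive subunits they replace was read within each array. Psmb5 fell by 0.84 in pBOO against sham (adjusted p = 0.00151) and Psmb6 by 0.49 (adjusted p = 0.0454), while Psmb7 changed by 0 (adjusted p = 0.996). The difference Psmb9 minus Psmb6 changed by -1.28 in pBOO against sham, by 0.53 in pBOO + tolterodine against pBOO, and by -0.76 in pBOO + tolterodine against sham. Psmb10 minus Psmb7, with flagged spots kept, changed by -1.76, 1 and -0.76 in the same order of comparisons. Psmb8 minus Psmb5 changed by -0.68, 0.71 and 0.03. Without sham 1, the changes of Psmb8 minus Psmb5 against sham were -0.22 in pBOO and 0.49 in pBOO + tolterodine, each resting on sham 2 alone. In 8 of these 9 comparisons the groups did not overlap, and each of the 8 had a two-sided exact permutation p of 0.1, the smallest that their numbers of arrays allow. None could therefore reach 0.05, and Benjamini-Hochberg adjustment over the 9, with flagged spots kept, gave 0.112 for each of the 8.

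**Figure D3:**
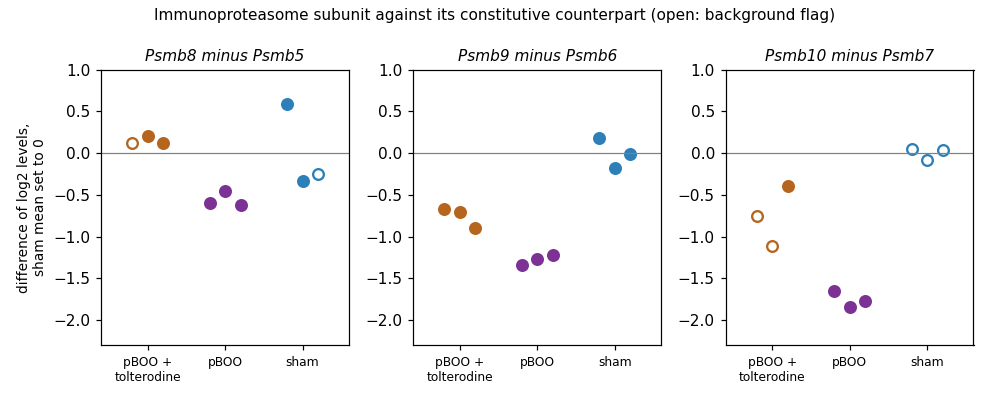
Difference between the log2 levels of each immunoproteasome subunit and the constitutive subunit it replaces, per array, with the mean of the sham arrays set to 0. Open points have a background flag on the immunoproteasome subunit's spot. The pBOO points are the lowest in each panel, and for Psmb9 and Psmb10 the pBOO + tolterodine points lie between pBOO and sham.

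Among the members that carry and hold peptides, Tap2 and B2m were lower in pBOO and Tap1 did not pass the test in any comparison. Tap2, a chain of the peptide transporter, was at -2.07, -2.35 and -1.93 on the pBOO + tolterodine arrays, -2.75, -2.1 and -2.29 on the pBOO arrays, and -1.22, -1.52 and -1.41 on the sham arrays. The sham arrays were above all others, while pBOO + tolterodine and pBOO overlapped. Tap2 fell by 1 in pBOO against sham (SE 0.19, adjusted p = 0.00316) and by 0.73 in pBOO + tolterodine against sham (SE 0.19, adjusted p = 0.0235). Within slide 2, where sham 1 is the sole sham array, the first of these was -1.16 with an adjusted p of 0.0584. The second was lost in 4 of 21 alternatives, among them those without tolterodine 1 (-0.76), tolterodine 2 (-0.61) or sham 3 (-0.74). The difference between pBOO + tolterodine and pBOO was 0.26 (SE 0.19, adjusted p = 0.284).

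Tap1, its partner chain, was at -2.59, -2.58 and -2.89 on the pBOO + tolterodine arrays, -3.23, -2.66 and -2.74 on the pBOO arrays, and -1.83, -2.89 and -2.68 on the sham arrays. The groups overlapped, and sham 1 was the highest array. Its differences were -0.41 in pBOO against sham (SE 0.27, adjusted p = 0.26), 0.19 in pBOO + tolterodine against pBOO (adjusted p = 0.611) and -0.22 in pBOO + tolterodine against sham (adjusted p = 0.587). Without sham 1 the first was -0.09 and the last 0.1. With slide as a fixed block, which sets pBOO against sham 1 alone, the first was -1.04 with an adjusted p of 0.0129 and the second 1.24 with an adjusted p of 0.0208.

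B2m, with flagged spots kept, was at 5.81, 5.59 and 6.25 on the pBOO + tolterodine arrays, 5.26, 5.35 and 5.35 on the pBOO arrays, and 6.27, 6 and 6.18 on the sham arrays. The pBOO arrays were below all others, and tolterodine 3 lay among the sham arrays. B2m fell by 0.83 in pBOO against sham (SE 0.17, adjusted p = 0.00439) and rose by 0.57 in pBOO + tolterodine against pBOO (SE 0.17, adjusted p = 0.0248). Under quantile normalization these were -0.24 (adjusted p = 0.118) and 0.15 (adjusted p = 0.3), and the second call was lost in 5 of 18 alternatives. The difference between pBOO + tolterodine and sham was -0.26 (adjusted p = 0.281), and -0.45 without tolterodine 3 (adjusted p = 0.0368).

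The class II members had their highest levels in the treated group. Ciita was at -2.73, -2.69 and -2.32 on the pBOO + tolterodine arrays, -4.38, -4.64 and -4.37 on the pBOO arrays, and -3.37, -3.65 and -3.51 on the sham arrays. The 3 groups did not overlap, with pBOO + tolterodine highest. Ciita rose by 1.88 in pBOO + tolterodine against pBOO (SE 0.15, adjusted p = 3.34e-05), which is 3.69-fold, and by 0.93 against sham (SE 0.15, adjusted p = 0.0034). It fell by 0.95 in pBOO against sham (SE 0.15, adjusted p = 0.00126). With normexp background correction, the rise against sham was 0.52 with an adjusted p of 0.127.

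Cd74 was at 3.91, 3.93 and 4.4 on the pBOO + tolterodine arrays, 2.32, 2.65 and 2.49 on the pBOO arrays, and 3.19, 2.66 and 2.81 on the sham arrays. Every treated array was above every other array, and the highest pBOO array nearly met the lowest sham array. Cd74 rose by 1.59 in pBOO + tolterodine against pBOO (SE 0.19, adjusted p = 0.000273), which is 3.02-fold, and by 1.19 against sham (SE 0.19, adjusted p = 0.00323), which is 2.28-fold. Within slide 1 the rise against sham was 1.18. In pBOO against sham its difference was -0.4 (SE 0.19, adjusted p = 0.116), and -0.25 without sham 1 (adjusted p = 0.286). With slide as a block it was -0.71 (fixed, adjusted p = 0.0103) or -0.64 (random, adjusted p = 0.00977).

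Other genes of the same steps were read from lists of the pathway. Of 24 other class I genes (class I heavy chains of the RT1 region and loading chaperones), 17 were tested, and 12 were lower and 0 higher in pBOO than in sham, beside 21.7% of all genes called lower, with a median of -0.74. Without sham 1, 9 were lower and 1 higher. Among them RT1-M3-1 changed by -1.14, RT1-N3 by -1.12 and RT1-CE3 by -1.1. After tolterodine, against pBOO, 6 were higher and 0 lower (median 0.42), beside 26% of all genes called higher, led by RT1-M3-1 at 1.03, RT1-CE10 at 0.92 and RT1-T24-4 at 0.86. Against sham, 1 was higher in pBOO + tolterodine (the chaperone Canx, 0.86) and 5 lower (median -0.36), beside 17.8% and 6.59% of all genes, among them RT1-CE3 at -1.39 and RT1-S3 at -1.1. RT1 class I genes are close copies of each other, so which copy a probe reads is uncertain. Erap1, Lnpep and Nlrc5 were not analysed here.

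Of 16 other class II genes, 13 were tested. In pBOO + tolterodine against pBOO, 9 were higher and 1 lower (median 1.19), beside 26% of all genes called higher. Against sham, 9 were higher in pBOO + tolterodine and 0 lower (median 0.82), beside 17.8% called higher. In pBOO against sham, 5 were lower and 0 higher (median -0.32), beside 21.7% called lower. Without sham 1 the counts against sham were 9 higher and 1 lower in pBOO + tolterodine, and 4 lower and 0 higher in pBOO. RT1-Da, a class II alpha chain, was at 4.19, 4.24 and 4.25 on the pBOO + tolterodine arrays, 2.05, 2.19 and 2.13 on the pBOO arrays, and 3.42, 2.72 and 2.92 on the sham arrays. The groups did not overlap, in the same order as for Ciita, and RT1-Da fell by 0.89 in pBOO against sham (adjusted p = 0.00316). RT1-Bb, a class II beta chain, rose by 2.97 in pBOO + tolterodine against pBOO (adjusted p = 2.92e-05) and by 1.65 against sham (adjusted p = 0.00195), and fell by 1.32 in pBOO against sham (adjusted p = 0.00209). The protease Ctss, which trims the invariant chain, rose by 2.55 and 1.44 in the same comparisons (adjusted p = 4.26e-05 and 0.00242) and fell by 1.11 in pBOO against sham (adjusted p = 0.00343). Rfx5, Rfxap and Rfxank, the factors that hold Ciita at class II promoters, passed the test in 0 of the 3 comparisons, with differences between -0.29 and 0.33.

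The probe of RT1-Ba, the alpha chain that pairs with RT1-Bb, went the other way. Whether it reads RT1-Ba alone was not tested. The probe read -4.34, -4.12 and -5.49 on the pBOO + tolterodine arrays, -0.9, 0.2 and -0.21 on the pBOO arrays, and -5.63, -1.26 and -1.69 on the sham arrays. Sham 1 was at the level of the treated arrays, and there the probe was not well above background. RT1-Ba fell by 4.35 in pBOO + tolterodine against pBOO (SE 1.01, adjusted p = 0.00876), and its difference in pBOO against sham was 2.56 (adjusted p = 0.0696), or 1.17 without sham 1 (adjusted p = 0.0642). In pBOO + tolterodine against sham it was -1.79 (adjusted p = 0.225), whereas without sham 1 it fell by 3.17 (adjusted p = 0.00177).

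**Figure D4:**
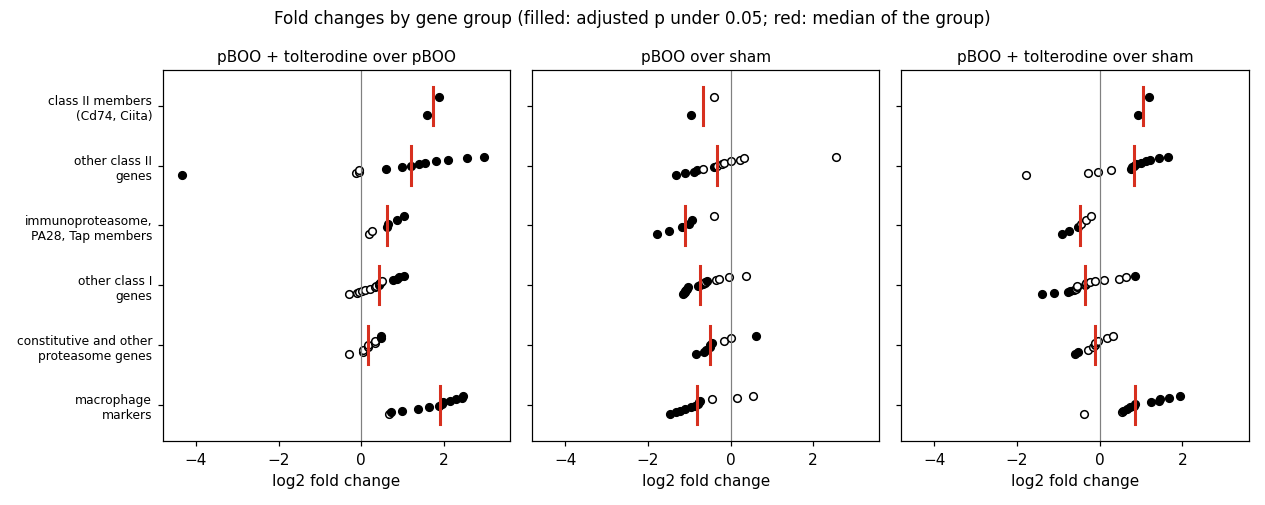
Log2 fold changes of single genes in 6 groups, in 3 panels for pBOO + tolterodine over pBOO, pBOO over sham, and pBOO + tolterodine over sham. Filled points have an adjusted p under 0.05 and red lines are group medians. In the third panel the medians of the class II genes and the macrophage markers lie above 0 and those of the class I and proteasome groups below 0, and the far point on the left of the first panel is RT1-Ba.

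Genes of interferon gamma signalling, the pathway known to induce the members, were read from a list of 17, of which 13 were tested. In pBOO against sham, 6 were lower and 2 higher (the kinases Jak1 and Jak2), with a median of -0.53, beside 21.7% of all genes called lower and 20.8% called higher. The largest change was that of Ido1, an enzyme that breaks down tryptophan. Its level was -2.28, -2.43 and -1.96 on the pBOO + tolterodine arrays, -4.24, -5.88 and -4.82 on the pBOO arrays, and -0.52, -1.65 and -1.25 on the sham arrays. The groups did not overlap, with sham highest, and 1 pBOO array had a signal not well above background. Ido1 fell by 3.84 in pBOO against sham (adjusted p = 0.000193) and rose by 2.76 in pBOO + tolterodine against pBOO (adjusted p = 0.00104), and its difference in pBOO + tolterodine against sham was -1.08 (adjusted p = 0.0881). Cxcl10, a chemokine, was at -0.15, -0.38 and -0.06 on the pBOO + tolterodine arrays, -0.7, -1.09 and -0.84 on the pBOO arrays, and 1.31, 0.35 and 0.69 on the sham arrays, with no overlap between groups. It fell by 1.66 in pBOO against sham (adjusted p = 0.00072) and by 0.98 in pBOO + tolterodine against sham (adjusted p = 0.0177). The factor Irf1 fell by 0.88 in pBOO against sham (adjusted p = 0.00969). In pBOO + tolterodine against pBOO, 5 were higher and 1 lower (Jak1, median of the list 0.24), beside 26% and 15.3% of all genes. The factor Irf8 rose by 1.35 (adjusted p = 0.00336, 2 unflagged treated arrays), the chemokine Cxcl9 by 0.94 (adjusted p = 0.00849) and Irf1 by 0.76 (adjusted p = 0.0189). In pBOO + tolterodine against sham, 2 were higher (Irf8 by 0.82, adjusted p = 0.0428, and Cxcl9 by 0.77, adjusted p = 0.034) and 2 lower (Cxcl10 and Irf9), beside 17.8% and 6.59% of all genes. Without sham 1 the difference of Cxcl9 was 0.59 (adjusted p = 0.0628). Without sham 1, 5 of the list were lower and 2 higher in pBOO than in sham. The probe of Ifng itself was too dim to test.

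Of 11 genes of constitutive subunits, assembly factors and other regulators of the proteasome, 9 were tested. In pBOO against sham 6 were lower and 1 higher (median -0.49), beside 21.7% and 20.8% of all genes. The treated group set against pBOO had 2 of the 9 higher and 0 lower (median 0.17), beside 26% of all genes called higher. In pBOO + tolterodine against sham 0 were higher and 2 lower (median -0.12), beside 6.59% called lower. Without sham 1, 4 were lower and 1 higher in pBOO than in sham, and 2 were lower and 1 higher in pBOO + tolterodine than in sham. The assembly factor Psmg4 fell by 0.64 in pBOO against sham (adjusted p = 0.015) and by 0.59 in pBOO + tolterodine against sham (adjusted p = 0.0345), where Psmb5 fell by 0.52 (adjusted p = 0.0252). The assembly factor Psmg2 rose by 0.48 in pBOO + tolterodine against pBOO (adjusted p = 0.0209) and Pomp by 0.47 (adjusted p = 0.00689). Pomp, which helps to assemble the proteasome, averaged 3.2 ± 0.1 in pBOO + tolterodine, 2.73 ± 0.03 in pBOO and 3.32 ± 0.09 in sham (SD, n = 3 each). Psme4, another activator, was the gene that was higher in pBOO than in sham, by 0.61 (adjusted p = 0.0102).

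Sums of macrophage markers and of general leukocyte markers differed between the groups in the same order as Ciita and Cd74. The summed linear level of 13 macrophage markers (75th percentile set to 1) was 137 to 157 on the pBOO + tolterodine arrays, 26.6 to 30.4 on the pBOO arrays and 60.3 to 78.3 on the sham arrays. Of the 12 tested, 11 were higher in pBOO + tolterodine than in pBOO, beside 26% of all genes. Against sham, 10 were higher in pBOO + tolterodine and 9 lower in pBOO, beside 17.8% and 21.7% of all genes. Leaving out sham 1 gave 9 higher in pBOO + tolterodine, and 10 lower and 1 higher in pBOO. Mrc1 and Csf1r differed by 0.55 and 0.16 in pBOO against sham (adjusted p = 0.096 and 0.64), and Itgam averaged highest in sham. Lyz2, summed but not tested because of flags, averaged 6.1, 3.54 and 5.01 in pBOO + tolterodine, pBOO and sham. It was the brightest of the 13 and carried the largest share of their sum. The complement gene C1qb rose by 2.43 and the scavenger receptor Cd163 by 2.45 in pBOO + tolterodine against pBOO (adjusted p = 7.23e-06 and 1.27e-05). The sum of 4 general leukocyte markers was 14.6 to 15, 3.85 to 4.23 and 6.46 to 9.04 in pBOO + tolterodine, pBOO and sham. For both sums the groups did not overlap, with pBOO + tolterodine above sham and sham above pBOO. Psmb9, Psmb10, Psme2 and Tap2 instead had their highest levels in sham.

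The 4 of 8 dendritic cell markers that were measured summed to 3.62 to 5.11 in pBOO + tolterodine, 1.24 to 1.29 in pBOO and 2.2 to 2.28 in sham. This sum was mostly Clec10a, a lectin also found on macrophages, which rose by 2.06 in pBOO + tolterodine against pBOO (adjusted p = 2.59e-05). Clec9a rose by 1.37 (adjusted p = 0.000636), and Batf3 and Zbtb46 differed by -0.43 and 0.34 (adjusted p = 0.189 and 0.324). The 10 of 13 measured markers of T and NK cells summed to 2 to 2.49, 1.27 to 1.46 and 1.56 to 1.94, and the 2 of 6 measured B cell markers to 0.795 to 0.874, 0.813 to 0.932 and 0.688 to 0.862, in the same order of groups. The T and NK sum was mostly Cd3g and Cd3d. Of those 10 markers, 4 were higher and 0 lower in pBOO + tolterodine than in pBOO, beside 26% of all genes called higher. Against sham, 2 were higher (Cd3d and Cd3e) and 1 lower (Gzmb, -1.37, adjusted p = 0.0263), beside 17.8% and 6.59% of all genes. In pBOO against sham, 1 was lower (Cd3d), beside 21.7% of all genes. Cd3e was not well above background on any pBOO or sham array. The B cell sums overlapped between all groups. They were mostly Pax5, which differed by 0.28 in pBOO against sham and -0.23 in pBOO + tolterodine against pBOO (adjusted p = 0.139 and 0.221). The dimmer Pou2af1 fell by 1.07 and rose by 1.13 in these comparisons (adjusted p = 0.000821 and 0.000612).

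Markers of the tissue's own cells differed as well. Smooth muscle markers summed to 344 to 534 in pBOO + tolterodine, 544 to 662 in pBOO and 425 to 485 in sham, a sum carried by the brightest genes. Gene by gene, 5 of the 6 tested were higher in pBOO than in sham (median 2.67), beside 20.8% of all genes. In pBOO + tolterodine, 5 were lower than in pBOO (median -2.22) and 1 was higher than in sham, beside 15.3% and 17.8% of all genes. Among the 6, Lmod1 rose by 3.38 and Mylk by 2.77 in pBOO against sham (adjusted p = 2.46e-05 and 2.19e-06), while Acta2 differed by 0.3 (adjusted p = 0.243). With flagged spots kept, 9 were tested, the medians were 1.26 and -1.06, and 0 were higher in pBOO + tolterodine than in sham. The added genes Actg2, Des and Tagln differed by -0.44, 0.24 and 0.77 in pBOO against sham (adjusted p = 0.131, 0.361 and 0.0089). Keeping flagged spots also let a brighter probe stand for some genes, so the fits do not differ by the added genes alone. Myh11, for example, read 6.03 with and 3.26 without these spots on pBOO 1. The largest change of the list in pBOO + tolterodine against sham was 0.69 with and 0.9 without them. Urothelial markers summed to 244 to 341 in pBOO + tolterodine, 224 to 332 in pBOO and 386 to 408 in sham, but their members went in opposite directions. In pBOO against sham 3 of 6 tested were lower (Krt5, Krt14 and Cdh1), beside 21.7% of all genes. The same 3 were higher in pBOO + tolterodine than in pBOO, beside 26% of all genes. Krt14, a basal cell keratin, rose by 2.6 in pBOO + tolterodine against pBOO (adjusted p = 5.13e-05), and Krt20, a keratin of the surface cells, fell by 4.98 (adjusted p = 0.00113). Against sham, pBOO + tolterodine was higher for Krt14 and lower for Krt20, Krt5 and Cdh1, beside 17.8% and 6.59% of all genes. With flagged spots kept, 10 were tested, and 5 were lower and 0 higher in pBOO than in sham (22.9% of all genes lower). In pBOO + tolterodine, 3 were higher and 4 lower than in pBOO (26.6% higher), and 0 were higher and 4 lower than in sham (6.55% lower). The added Upk1a, Upk2, Upk3a and Krt19 differed by -0.56, -1, 0.32 and 1.45 in pBOO + tolterodine against pBOO (adjusted p = 0.0423, 0.0158, 0.259 and 0.000517). Endothelial markers summed to 3.33 to 3.74, 3.48 to 5.7 and 3.01 to 3.07 in pBOO + tolterodine, pBOO and sham. Of the 6 tested, 4 were higher in pBOO than in sham, led by Cldn5 at 2.2 (adjusted p = 9.56e-06), beside 20.8% of all genes. In pBOO + tolterodine, 3 were lower than in pBOO and 3 were higher than in sham, beside 15.3% and 17.8% of all genes. The part of these cell types in the members' changes was not tested.

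**Figure D5:**
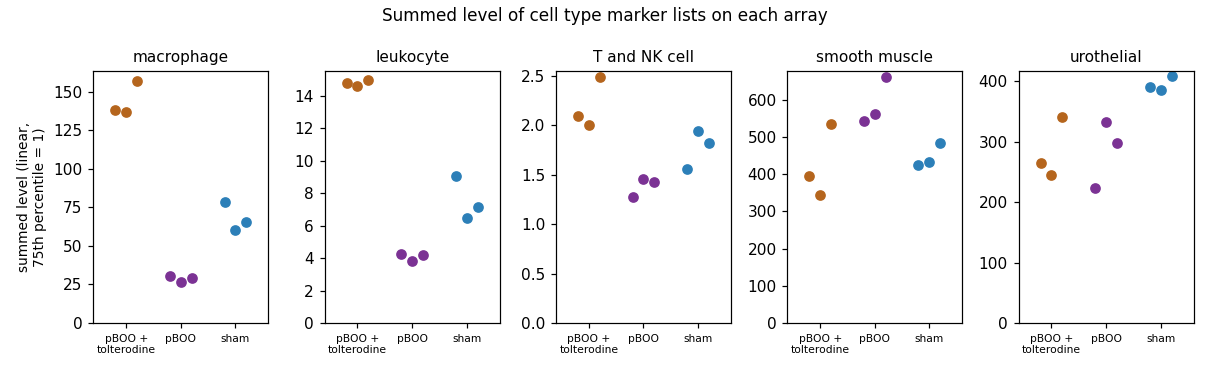
Summed linear level of 5 cell type marker lists on each array (75th percentile of the array set to 1), for pBOO + tolterodine, pBOO and sham. Points are arrays and axes start at 0. Macrophage and leukocyte sums are highest in pBOO + tolterodine and lowest in pBOO, and urothelial sums are highest in sham.

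The genes whose pattern over the 9 arrays was most like the mean of the 7 members with complete values were found among 10099 others, by the root mean square difference of centred log2 levels. They were Ykt6 (0.0584), Mrpl37 (0.0671), Reep4 (0.0687), Slc25a10 (0.075) and Ddah1 (0.0786). The members themselves were 0.195 (Psme2) to 0.528 (Cd74) from their own mean. Ciita (0.499) and Cd74 were the farthest, and Psme2 and Psme1 (0.207) the nearest.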

How the data were processed

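Bladder RNA was hybridised to 9 Agilent 1-colour arrays (3 per group by title). Per the file headers, the deposited processed signals are intensities from Feature Extraction 11.0.1.1 (the submitters' processing notes name 9.1), background-subtracted and not normalized between arrays. The deposited median and background intensities served one alternative, and the deposited flags are values of another kind, 0 or 1.

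Log2 signals of 42877 non-control spots were taken minus each array's 75th percentile. Spots flagged as non-uniform or population outliers (spot or background) were removed, spots of a probe were averaged, and probes well above background on at least 3 arrays were kept (22146 of 30367). RefSeq symbols (GRCr8) matched 18005 probes by accession. Probes needed 2 unflagged arrays per group, and the brightest such probe stood for its gene, leaving 11049 genes. They were tested in a single limma fit (R 4.3.3, limma 3.58.1), two-sided, with Benjamini-Hochberg adjustment over all genes and a threshold of 0.05. The number of arrays limits the precision (median SE 0.17). The rule for named genes took all members, at most 3 of the largest called changes of each pathway list per comparison and the 5 genes of most like pattern. Other genes were named after their values were seen. Some listed genes are not reported here. The members and all lists were chosen with earlier results of these data known. Figures used matplotlib 3.10.9. The fit was tested on simulated data with independent noise and no slide effect, so that test does not bear on slides. Scaling, background correction, filters, flags, probe choice, slide and left-out arrays were varied. Repeats of the listed genes without sham 1 were added after seeing the data.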

Additional observations from a re-analysis of the deposited data

How the results depend on the processing

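The calls of Psmb9 in all 3 comparisons, of Psmb8, Psmb10, Psme1, Psme2 and Ciita in pBOO against sham, of Psmb10, Psme2, Cd74 and Ciita in pBOO + tolterodine against pBOO, and of Cd74 in pBOO + tolterodine against sham held under every alternative run. None of these alternatives set pBOO + tolterodine against pBOO within a slide. For Psmb10, every alternative kept the flagged spots. Tap1 in pBOO + tolterodine against sham (-0.22, never called, -0.43 to 0.1 leaving out 1 array) turned to 0.2 with slide as a fixed block, 0.2 within slide 1 and 0.1 without sham 1. Psmb8 minus Psmb5 in the same comparison (0.03) turned to -0.07 with quantile normalization, under which it was 0.86 in pBOO + tolterodine against pBOO (otherwise 0.71), and Psmb10 minus Psmb7 was -1.48 in pBOO against sham (otherwise -1.76). With exchanged names of pBOO and sham, 6 members were higher and 0 lower in pBOO against sham. The comparisons of pBOO + tolterodine with these groups would trade places. The causes were not tested.

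The 4693 genes called in pBOO against sham became 3026 with normexp and 2798 within slide 2 (1 sham array), and the 4564 in pBOO + tolterodine against pBOO became 3000 with normexp. The 2693 in pBOO + tolterodine against sham became 961 with normexp, 4486 and 4279 with slide as a fixed and a random block, and 5672 within slide 1. There, the 5 called members became 3 with normexp. Leaving out 1 array gave 3406 to 5141, 3396 to 5336 and 1412 to 3785 genes and 6, 5 to 6 and 3 to 6 members in pBOO against sham, pBOO + tolterodine against pBOO, and pBOO + tolterodine against sham, with 3 members without tolterodine 1, tolterodine 2 or sham 3. Where a group kept 1 array, that array was assumed to vary like the others. The share of called genes that were higher was 48.9% in pBOO against sham, 39% with normexp and 40.5% with array median scaling. It was 62.9% in pBOO + tolterodine against pBOO and 52.6% with quantile normalization, and 73% in pBOO + tolterodine against sham, 58.1% with quantile normalization and 49.9% with median scaling. Median scaling moved the median of all genes in the last comparison from 0.09 to -0.05, and normexp moved that of pBOO against sham from -0.04 to -0.14.

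Replicate numbers did not pair the arrays: same-numbered arrays' deviations correlated at -0.08 to 0.18 over 9 pairs, with 1 over 0.1. With the replicate block, 4349, 4226 and 2332 genes and 6, 5 and 5 members were called in pBOO against sham, pBOO + tolterodine against pBOO, and pBOO + tolterodine against sham, with Psmb8 lost in the second (1.05, adjusted p = 0.0791).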
